A study of Mus musculus with 5 samples.

Results

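The flavin-containing monooxygenase genes *Fmo1*, *Fmo2*, *Fmo4* and *Fmo5* were followed in dorsal skin of *Clock* mutant and wild-type mice. They were represented by every probe set that the array's annotation assigns to 1 of these 4 genes alone, which gave 10 of the 45037 probe sets left after removal of controls. *Fmo2* had 5 probe sets, *Fmo5* had 3, and *Fmo1* and *Fmo4* had 1 each. The family was chosen on the log2 differences of *Fmo1* and *Fmo2*, which were lower in the mutant skin, so the differences between genotypes below are a description of these 10 probe sets. No p-value is given for them, and the calls they received in the fit across the array are printed once, as part of that description. RNA came from 5 mice at postnatal day 23, with 1 Affymetrix array per mouse: a male (mutant 1) and a female (mutant 2) *Clock* mutant mouse, and 3 female wild-type littermates (WT 1, WT 2 and WT 3), numbered as in the labels. All skins were staged by histology as telogen, when hair follicles rest between growth phases. Marker genes of the growing hair follicle, given below, were nonetheless high in mutant 1, and a difference in stage between the arrays was not tested. The *Clock* line was kept on C57BL/6J, its germline mutation is present in all cell types of the skin and of the rest of the body, and the study's staging of the line writes its mutants as Cl/Cl. The labels of these arrays give neither zygosity nor the time of day of collection. Expression was read from whole dorsal skin, in which fewer cells of a type and less RNA per cell cannot be told apart.

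Flavin-containing monooxygenases are membrane enzymes of the endoplasmic reticulum. They hold an FAD cofactor, reduce it with NADPH, bind oxygen on the reduced flavin, and pass 1 oxygen atom to a nitrogen or sulphur of the substrate. FMO1 oxygenates many drugs and amines and makes taurine from hypotaurine, and in mouse liver its message is higher in females than in males. FMO2 is best known as the lung form, and most people carry a truncated, inactive version of it whereas the mouse enzyme is full length. FMO5 is unusual in the family because it inserts oxygen next to carbonyl groups, and little is known of the substrates of FMO4. CLOCK pairs with BMAL1 and activates genes through E-boxes, while D-boxes and ROREs are the sites of 2 further arms of the clock circuit, bound by PAR bZIP factors and by the REV-ERB and ROR receptors.

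The promoters of *Fmo2* and *Fmo5* are shown first, since the former gene was the lowest relative to wild type and the latter lay close to it. They are RefSeq windows of assembly GRCm38.p6 that run from 250 bases before to 50 bases after a transcript start, 5′ to 3′ on the strand of the gene. Such a window was at hand for 3 of the 4 genes, namely *Fmo2*, *Fmo4* and *Fmo5*, with 2 start sites 265 bases apart for *Fmo2*. Capitals mark an E′-box (CACGTT) or the core of a RORE (AGGTCA), searched on both strands.
*Fmo2*, first start, chr1:162898709-162899008, minus strand: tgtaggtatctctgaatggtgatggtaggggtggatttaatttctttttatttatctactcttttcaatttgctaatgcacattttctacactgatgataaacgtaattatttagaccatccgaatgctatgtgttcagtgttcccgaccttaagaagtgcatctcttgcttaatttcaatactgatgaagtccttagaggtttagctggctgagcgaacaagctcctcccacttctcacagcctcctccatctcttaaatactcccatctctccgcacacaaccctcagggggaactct
*Fmo2*, second start, chr1:162898444-162898743, minus strand: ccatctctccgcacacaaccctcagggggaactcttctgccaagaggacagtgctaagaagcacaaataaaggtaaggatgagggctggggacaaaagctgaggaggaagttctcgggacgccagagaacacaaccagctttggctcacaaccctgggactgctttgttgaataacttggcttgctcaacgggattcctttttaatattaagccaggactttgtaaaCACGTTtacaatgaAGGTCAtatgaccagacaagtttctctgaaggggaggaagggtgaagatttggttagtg
*Fmo5*, chr3:97628769-97629068, plus strand: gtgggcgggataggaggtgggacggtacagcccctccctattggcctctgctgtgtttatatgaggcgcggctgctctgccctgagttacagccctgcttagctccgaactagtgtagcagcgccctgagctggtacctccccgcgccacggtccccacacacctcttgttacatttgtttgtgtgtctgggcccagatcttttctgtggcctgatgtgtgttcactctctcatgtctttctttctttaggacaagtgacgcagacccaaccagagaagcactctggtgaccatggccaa
The canonical E-box (CACGTG) and the D-box (TTANGTAA) were found in 0 of the 4 windows, and over all 32851 RefSeq windows of this length they occurred in 7.15% and 2.32%. The second *Fmo2* window held 1 E′-box, which began 23 bases before the start, and 1 RORE core, which began 9 bases before it. E′-boxes occurred in 4.68% and RORE cores in 16.3% of all windows. A RORE core was also found 75 bases before the *Fmo4* start, and the *Fmo5* window and the first *Fmo2* window held none of these motifs. The looser E-box core (CANNTG), which the canonical E-box contains, stood in 72.3% of all windows. It was found 2 times in the *Fmo5* window, 1 time in the *Fmo4* window and 1 time in the second *Fmo2* window, where it overlaps the RORE core, and 0 times in the first *Fmo2* window. These matches describe the letters of the windows and no binding was measured.

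*Fmo2* was lower in *Clock* mutant skin at every one of its probe sets. At the brightest, 1453435_a_at, the MAS5 intensity, a linear signal in arbitrary units, was 968 and 1096.4 in mutants 1 and 2, compared with 2827.6, 2610.2 and 3331.7 in WT 1, WT 2 and WT 3. The higher mutant array was thus well below the lowest wild-type array, with a gap of 1.25 on the log2 scale. The group means were 1032.3 ± 90.6 (SD, n = 2) and 2923.2 ± 370 (SD, n = 3), and the difference of the log2 means, mutant minus wild type, was -1.50 (SE 0.117 from limma), or 2.82-fold. In the mutants *Fmo2* stood at 33.1% and 37.5% of the mean wild-type intensity, and the wild-type arrays spread from 89.3% to 114%.

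The other *Fmo2* probe sets gave the same picture where they were bright enough to be read. Probe set 1435459_at had intensities of 869 and 1103 in the mutants and of 2285.5, 2499.2 and 2645.6 in wild-type skin, which gave a log2 difference of -1.34 (SE 0.119). Probe set 1422904_at had 190 and 217 in the mutants and 558, 649 and 642 in wild-type skin, which gave a log2 difference of -1.60 (SE 0.138). Probe set 1422905_s_at had 166 and 255 in the mutants and 632, 651 and 664 in wild-type skin, which gave a log2 difference of -1.66 (SE 0.181). In all 3 the groups stood apart without overlap. The last of these carries the suffix by which the maker marks probes that may match transcripts of more than one gene.

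Across the 4 bright *Fmo2* probe sets the log2 differences ran from -1.66 to -1.34, or 2.52-fold to 3.16-fold lower, so that their disagreement of 0.32 was small beside the differences themselves. Averaged over these 4, mutant 1 lay at -1.69 and mutant 2 at -1.35 relative to the wild-type mean. The fifth, 1454005_at, was dim, with intensities of 31.6 and 41.9 in the mutants and 56.8, 51.6 and 47.0 in wild-type skin. Its mean was below the filter of 56.7, the 40th percentile of all probe sets, under which MAS5 values are too noisy to compare, and its log2 difference was -0.50 (SE 0.375). The probe sets of 1 gene share their RNA and are not replicates.

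**Figure D1:**
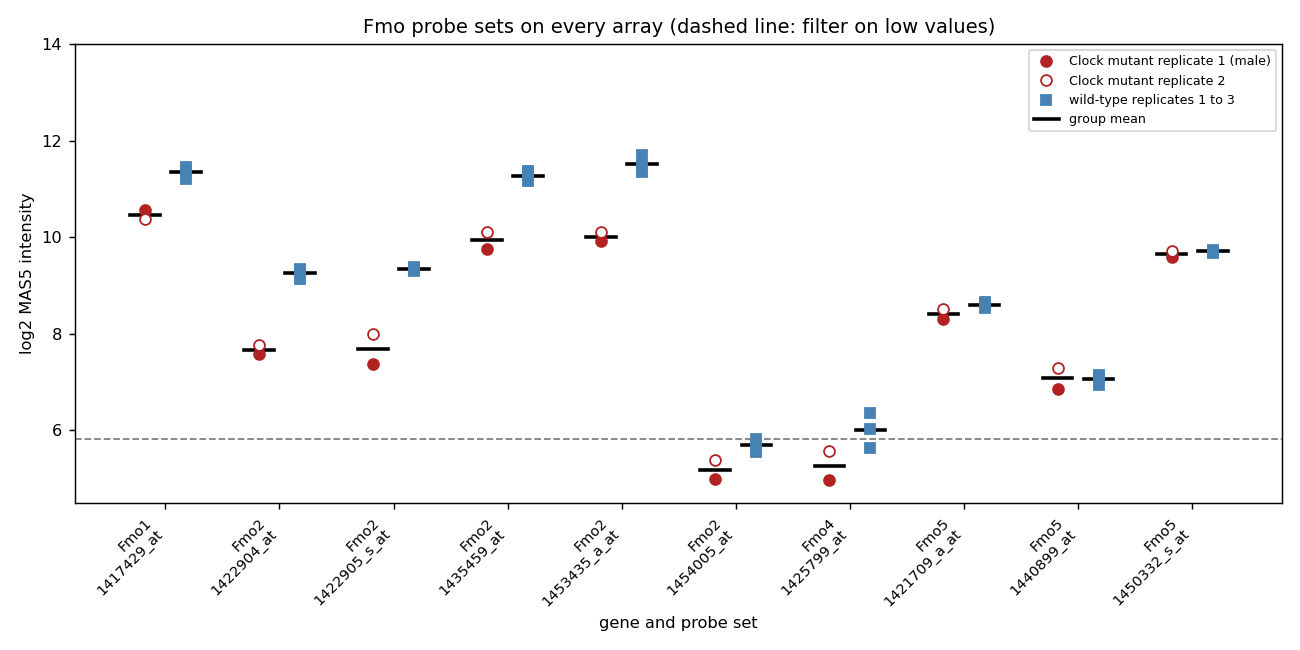
Log2 MAS5 intensity (vertical axis) of each *Fmo* probe set (horizontal axis) on every array, with *Clock* mutant arrays as red circles (open for mutant 2), wild-type arrays as blue squares and black bars for group means; the dashed line is the filter at an intensity of 56.7. The mutant circles lie below all wild-type squares for *Fmo1* and the 5 *Fmo2* probe sets, while at 2 of the 3 *Fmo5* probe sets the groups overlap.

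*Fmo1*, the neighbour of *Fmo2* on chromosome 1, was lower as well, by a smaller factor. Its single probe set, 1417429_at, had intensities of 1501.4 and 1321.2 in mutants 1 and 2, compared with 2804.1, 2345.6 and 2641.7 in WT 1, WT 2 and WT 3. Both mutants were below every wild-type array, with a gap of 0.64 on the log2 scale. The group means were 1411.3 ± 127 (SD, n = 2) and 2597.1 ± 232 (SD, n = 3), a log2 difference of -0.88 (SE 0.104) or 1.84-fold. The mutants stood at 57.8% and 50.9% of the wild-type mean.

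In the male mouse, mutant 1, *Fmo1* was the higher of the 2 mutants and *Fmo2* the lower. Without that array, and so among females only, the log2 difference was -0.97 for *Fmo1* and -1.41 for *Fmo2*. *Fmo1* and *Fmo2* thus ranked the 2 mutants in opposite order. This sets 1 mouse against 1 mouse, and an effect of sex was not tested. Relative to the wild-type mean, log2 *Fmo1* minus log2 *Fmo2* was 0.80 and 0.44 in the mutants and 0.15, 0.01 and -0.17 in WT 1, WT 2 and WT 3. On this scale the mutants lay outside the wild-type arrays, on the side of the smaller *Fmo1* difference. As the scale is made of the same *Fmo1* and *Fmo2* values, this is no separate observation.

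*Fmo4* was dim. Its probe set, 1425799_at, had intensities of 31.1 and 47.5 in the mutants and of 65.2, 49.9 and 81.4 in wild-type skin. The mutants were lower, but the gap between the nearest arrays was only 0.07 on the log2 scale, and the log2 difference of -0.74 had an SE of 0.391. The geometric mean over the arrays, 52.3, lay under the filter, so *Fmo4* had no place among the tested probe sets. At this signal a difference of *Fmo4* between the genotypes was not resolved.

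*Fmo5*, the only one of the 4 genes outside chromosome 1, differed little between the genotypes. At its brightest probe set, 1450332_s_at, the intensities were 772 and 835 in the mutants and 852, 829 and 818 in wild-type skin, and the groups overlapped. The means were 803 ± 44.8 (SD, n = 2) and 833 ± 17.3 (SD, n = 3), a log2 difference of -0.05 (SE 0.101). This probe set too carries the suffix of probes that may match transcripts of more than 1 gene. Probe set 1440899_at had 116 and 157 in the mutants and 123, 142 and 138 in wild-type skin, which gave a log2 difference of 0.01 (SE 0.212). Probe set 1421709_a_at, which can match several transcripts of the gene, had 316 and 364 in the mutants and 369, 390 and 403 in wild-type skin. At this probe set both mutants were below the wild-type arrays by a gap of only 0.02, with a log2 difference of -0.19 (SE 0.135). The sign of the *Fmo5* difference depended on the setting, as it was 0.04 after median centring of the arrays.

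**Figure D2:**
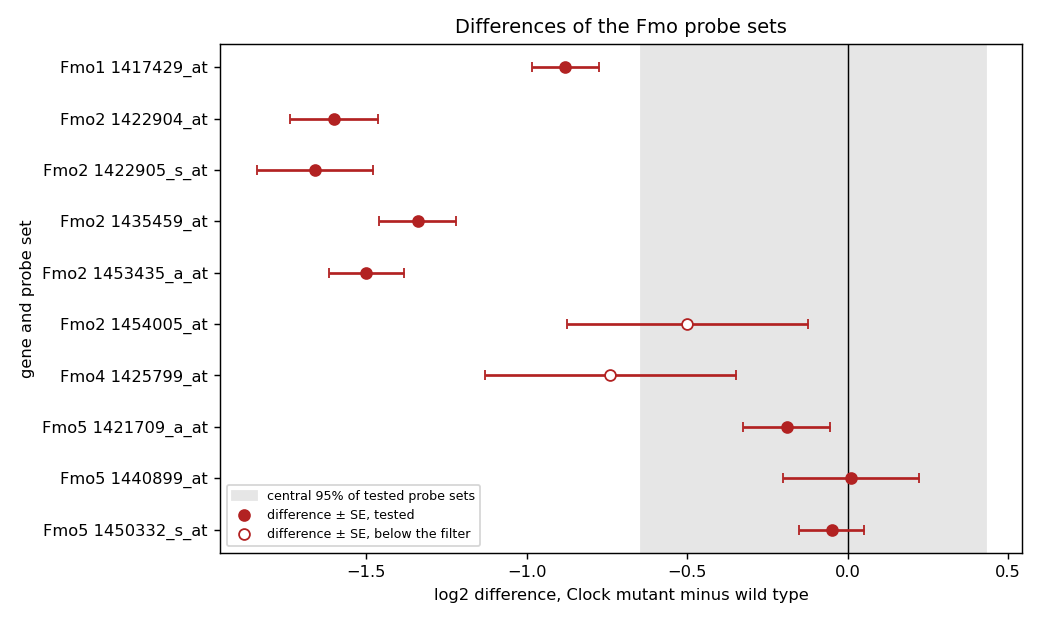
Log2 difference (horizontal axis, mutant minus wild type) of each *Fmo* probe set (vertical axis), with bars for the SE; open points lay under the filter and the grey band holds the central 95% of all tested probe sets, from -0.64 to 0.43. The points of *Fmo1* and of the 4 bright *Fmo2* probe sets lie to the left of the band, and those of *Fmo5* lie within it. The open point of *Fmo4*, at -0.74, also lies to the left of the band.

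Of the 10 probe sets, 9 had a negative difference, against 55.2% of all probe sets, and at 8 both mutants were below every wild-type array, against 14.3% of all probe sets. Filtering left 8 of the 10 in the fit across the array, all but *Fmo4* and the dim *Fmo2* probe set. Of these 8, 5 passed the adjusted threshold of 0.05 in limma as lower in the mutant (*Fmo1* and 4 of *Fmo2*) and 0 as higher, where 0.074% of all tested probe sets passed as lower. As *Fmo1* and *Fmo2* were chosen for this very contrast, nothing further is read from these counts. The adjusted calls depended on the arrays and the settings: 0 of the 5 passed without WT 2, without WT 3 or with a prior that ignored intensity, 3 without WT 1, and 4 without mutant 1, without a filter or after median centring. How often a call held over the alternatives is no measure of support, since the genes were picked on this contrast. Over the alternative settings the *Fmo1* difference at its probe set ran from -0.97 to -0.79 and the *Fmo2* difference at its brightest probe set from -1.59 to -1.40, and the mean over all 5 *Fmo2* probe sets was -1.32.

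**Figure D3:**
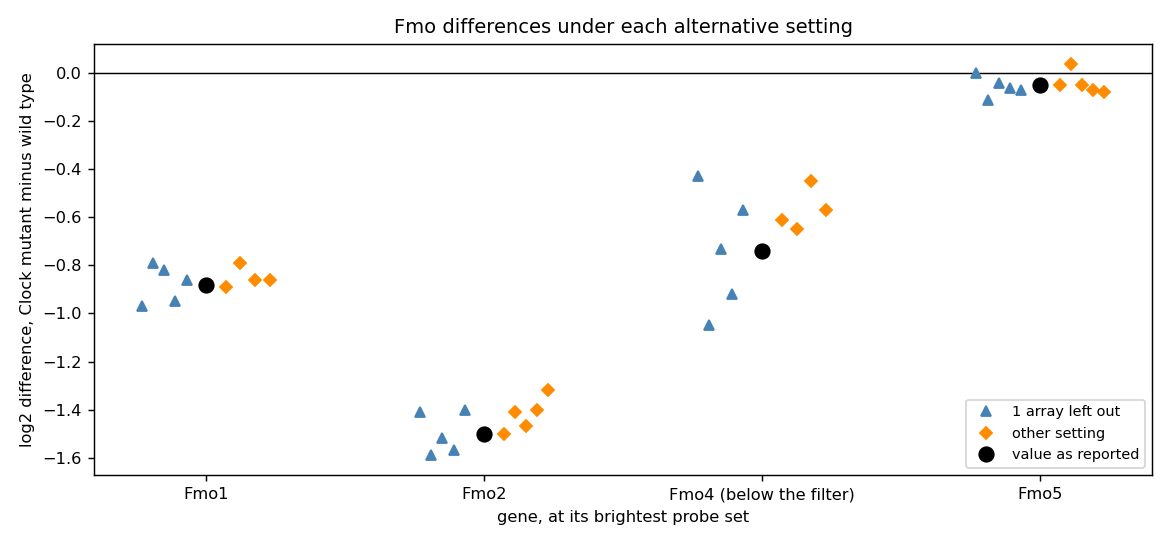
Log2 difference of each gene at its brightest probe set (vertical axis) as reported (black), with 1 array left out (blue triangles) and under the other settings (orange diamonds). *Fmo1* stays between -0.97 and -0.79 and *Fmo2* between -1.59 and -1.40, apart from the diamond at -1.32, which is the mean of all its probe sets, while *Fmo4* spreads from -1.05 to -0.43, and *Fmo5* lies between -0.11 and 0.04.

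*Fmo4*, *Fmo1* and *Fmo2* follow each other in this order on chromosome 1 of the RefSeq table. The genes around the cluster were looked at next. The 5 nearest protein-coding genes on each side of the cluster and of *Fmo5* on chromosome 3 make 20 genes, of which 12 could be tested. By limma 0 rose and 0 fell, with 0 at an unadjusted p under 0.05 and 0 by a Cyber-T style test. Over the array 0.116% of all 12955 genes tested at their brightest probe set passed in either direction. At these probe sets the median difference of the 12 neighbours was 0.00, beside 0.02 over all genes, and the neighbours ran from -0.24 to 0.49. These values pool the neighbours of the cluster with those of *Fmo5*. Several neighbours of the cluster, *Mroh9* among them, had no tested probe set. Other probe sets of some neighbours had the opposite sign.

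*Prrc2c*, a large RNA-binding protein gene next to *Fmo4*, was at -0.14 (log2 difference, SE 0.275, adjusted p = 0.89 by limma). *Prrx1*, a homeobox gene of mesenchymal cells on the other side of the cluster, had intensities of 3361.5 and 2786.3 in the mutants and 2854.5, 2120.4 and 2561.4 in wild-type skin. Its groups overlapped and its difference was 0.30 (SE 0.133, adjusted p = 0.468 by limma) at this probe set, its brightest. The 5 tested probe sets of *Prrx1* ran from -0.27 to 0.30, so its sign depended on the probe set. *Mroh9*, beside *Prrx1*, was below the filter. Beside *Fmo5*, the chromatin remodeller gene *Chd1l* differed by 0.22 (SE 0.0993, adjusted p = 0.47), *Prkab2*, a subunit of the energy sensor AMPK, by 0.01 (SE 0.124, adjusted p = 0.988), and *Pde4dip*, which encodes a centrosome and Golgi protein, by 0.20 (SE 0.122, adjusted p = 0.571, all by limma).

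**Figure D4:**
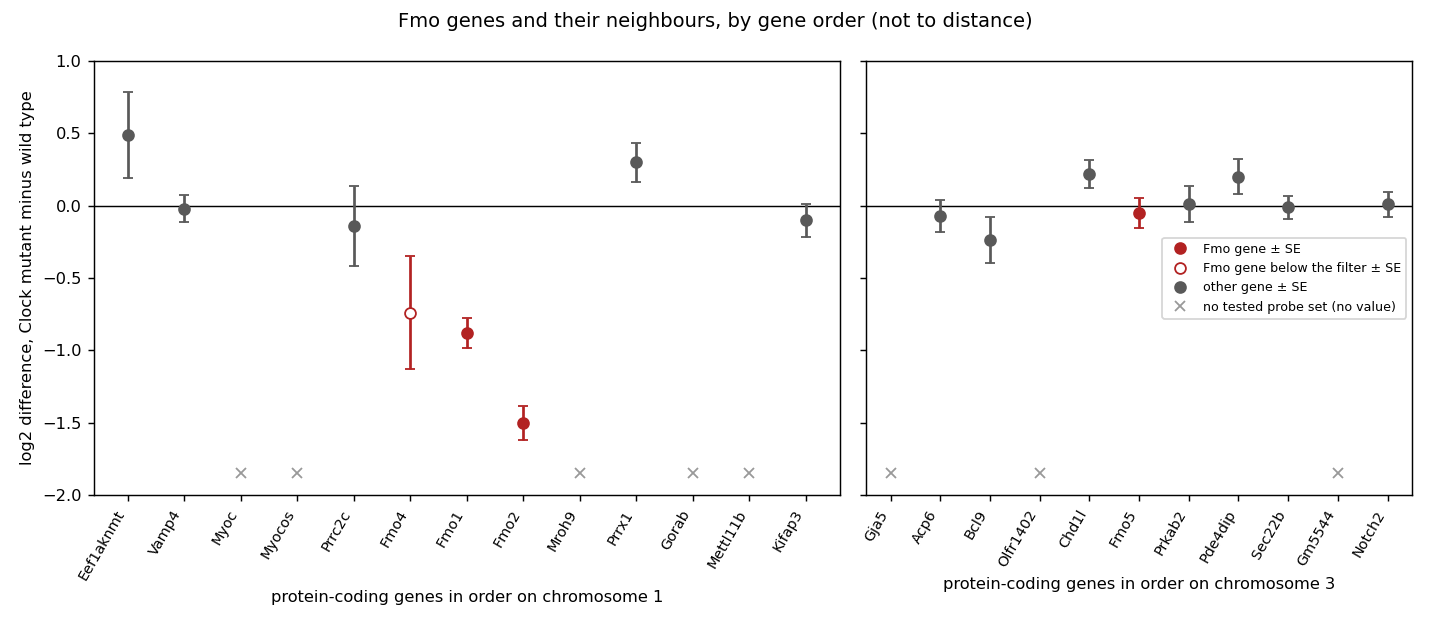
Log2 difference, mutant minus wild type (vertical axis, bars are SE) for the *Fmo* genes (red, open where under the filter) and the protein-coding genes around them (grey) in gene order on chromosomes 1 and 3; crosses stand for genes with no tested probe set and carry no value, and not every gene of the region is drawn. Each gene is drawn at its brightest probe set. *Fmo4*, *Fmo1* and *Fmo2* lie at -0.74, -0.88 and -1.50, the tested genes around them on chromosome 1 between -0.14 and 0.49, and those around *Fmo5* between -0.24 and 0.22.

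Genes around the reaction of the enzymes, and genes of the microsomal P450 and aryl hydrocarbon receptor pathways, were looked at as lists. Of 42 genes in 6 lists, 37 were tested, and by limma 0 rose and 0 fell, with 7 at an unadjusted p under 0.05 and 1, *Arnt*, past the adjusted threshold by a Cyber-T style test. These are 18.9% at an unadjusted p under 0.05 and 1 call, against 10% (1298) and 1.32% (171) of the 12955 genes tested. For hypotaurine and taurine, 7 of 9 genes were tested and their median difference was -0.07. *Cdo1*, cysteine dioxygenase, and *Csad*, which makes hypotaurine, the substrate of FMO1, were at -0.07 (SE 0.103) and -0.04 (SE 0.109). The smallest p of the list belonged to *Vnn3*, a pantetheinase gene, with intensities of 117 and 106 in the mutants and 162, 208 and 130 in wild-type skin (difference -0.56, SE 0.235, adjusted p = 0.45 by limma).

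The NADPH suppliers had a median of 0.12 over 8 of 9 genes, and 6 of the 8 were positive. *Pgd*, of the pentose phosphate pathway, had 3682.4 and 2323.6 in the mutants and 2044.6, 2396.4 and 2209.2 in wild-type skin, so that among these arrays only mutant 1 was high and the groups overlapped (difference 0.40, SE 0.169, adjusted p = 0.446 by limma). For riboflavin and FAD, *Slc52a3*, a riboflavin transporter, was at 0.37 (SE 0.14, adjusted p = 0.404 by limma) and the median of 3 of 4 genes was 0.03. Among partners of microsomal P450 enzymes, 5 of 6 genes had a median of -0.02, with *Cyb5b*, a cytochrome b5, at 0.25 (SE 0.0906, adjusted p = 0.395 by limma). The 7 reductases that can reverse N- and S-oxygenation, all tested, had a median of 0.13, and *Mtarc2*, a molybdenum enzyme of the outer mitochondrial membrane, was at 0.21 (SE 0.0738, adjusted p = 0.382 by limma).

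The aryl hydrocarbon receptor genes, a receptor pathway for foreign chemicals, had a median of -0.03 over 7 of 7 genes. *Arnt*, the partner of that receptor and, like CLOCK, a bHLH-PAS protein, had the smallest p of all the lists. Its intensities were 602 and 658 in the mutants and 904, 1209.7 and 1036 in wild-type skin, without overlap. The log2 difference was -0.73 (SE 0.135, adjusted p = 0.138 by limma), its 5 tested probe sets ran from -0.73 to -0.27, and over the alternatives the adjusted p ran from 0.0102 to 0.544. *Tiparp*, a target of the receptor, had 884 and 981 in the mutants and 1182.6, 1411.4 and 1195.4 in wild-type skin, also without overlap (difference -0.43, SE 0.113, adjusted p = 0.273 by limma), and its 3 probe sets ran from -0.64 to -0.29. *Ahr* itself was at -0.01 (SE 0.0983) and *Cyp1a1*, another target, at -0.10 (SE 0.107). The *Fmo1* and *Fmo2* values of the same arrays stood at -0.88 and -1.50.

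The genes whose profile over the 5 arrays was most like that of a member were sought among 12952 other genes, by the root mean square difference of log2 intensity from the wild-type mean. A gene like *Fmo1* or *Fmo2* in this sense is lower in the mutants by construction. Nearest to *Fmo1* was *Tspan4*, a tetraspanin gene, at a root mean square difference of 0.051, with intensities of 1024.6 and 965 in the mutants and 1944.7, 1752.6 and 1828 in wild-type skin. *Pi16*, a peptidase inhibitor gene of fibroblasts (0.097), and *Lonrf1*, a RING finger protein gene (0.113), came next. For *Fmo2* the nearest was the chemokine gene *Cxcl13* at 0.226, with 92.3 and 110 in the mutants and 286, 346 and 424 in wild-type skin. *Car11*, a carbonic anhydrase relative (0.228), and *Tmem14a*, a membrane protein gene (0.237), followed. The distances are not scaled to the size of a difference, so those of *Fmo1* and *Fmo2* are not compared.

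Series-wide values that touch these results were as follows. *Per3*, which the study lists among clock genes with E-boxes, E′-boxes or D-boxes, was at 196 and 247 in the mutants and 591 to 815 in wild-type skin. Its difference was -1.64 (SE 0.17, adjusted p = 0.0144 by limma) at its brightest probe set. The 4 tested *Per3* probe sets ran from -1.64 to -0.56, and 1 was called. The clock output gene *Dbp* was at -1.32 (SE 0.229, adjusted p = 0.115 by limma) at its brighter probe set and at -1.54 at the other, which was called. *Clock* itself was at -0.05 (SE 0.0927, adjusted p = 0.878 by limma), with 4 probe sets from -0.53 to 0.25. The keratin genes *Krt14* and *Krt10* and the collagen gene *Col1a1*, defining genes of skin, had intensities of at least 9793.5 on every array. Of 67 marker genes of 11 cell types, 60 were tested, and 0 rose and 0 fell by limma, with 12 at an unadjusted p under 0.05 (20%, against 10% of all genes tested). By a Cyber-T style test 5 of the 60 passed the adjusted threshold, where 1.32% (171) of all 12955 genes tested did. The 5 were the hair follicle genes *Krt25*, *Krt27*, *Krt71* and *Tchh*, at 3.02, 2.16, 2.53 and 1.74, and *S100a4* of the fibroblast list, at 0.37.

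Marker lists of single cell types were set beside the *Fmo* values. Each gene was read at its brightest tested probe set, and other probe sets of some genes differed more, in both directions. *Dcn* ran from -0.45 to -0.05, *Fabp4* from -0.68 to -0.18 and *Col1a2* from -0.02 to 0.30. The sums are carried by the brightest genes, and a change in the share of a cell type was not tested. The 10 dermal fibroblast markers, all tested, had a median of -0.01 and summed to 129714 to 133811 in the mutants and 130075 to 140805 in wild-type skin. The 6 tested of 8 white adipocyte markers had a median of -0.05 and summed to 35220 to 41025 in the mutants and 39309 to 44198 in wild-type skin. The medians of the other lists were -0.05 for skeletal muscle, 0.04 for basal keratinocytes, 0.04 for endothelium, 0.03 for macrophages, -0.13 for sebocytes and -0.23 for melanocytes, and *Alas2*, the only blood marker tested of 3, was at -0.01. The suprabasal keratinocyte median was -0.04, and 0.05 after median centring. Several of these medians rested on single mutant arrays: without mutant 1 and without mutant 2 respectively, they were -0.25 and 0.12 for white adipocytes, -0.11 and 0.17 for macrophages, 0.03 and -0.29 for sebocytes, -0.49 and 0.17 for melanocytes and 0.46 and -0.48 for *Alas2*. Farthest from 0 was the list of the growing hair follicle, with a median of 1.95 over 6 of 7 genes, and 0.88 without mutant 1. Its summed intensity was 6884 in mutant 1 and 1269 in mutant 2, beside 1405, 542 and 587 in WT 1, WT 2 and WT 3, so that only mutant 1 stood apart. Without that array the *Fmo2* difference was -1.41 and the *Fmo1* difference -0.97.

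**Figure D5:**
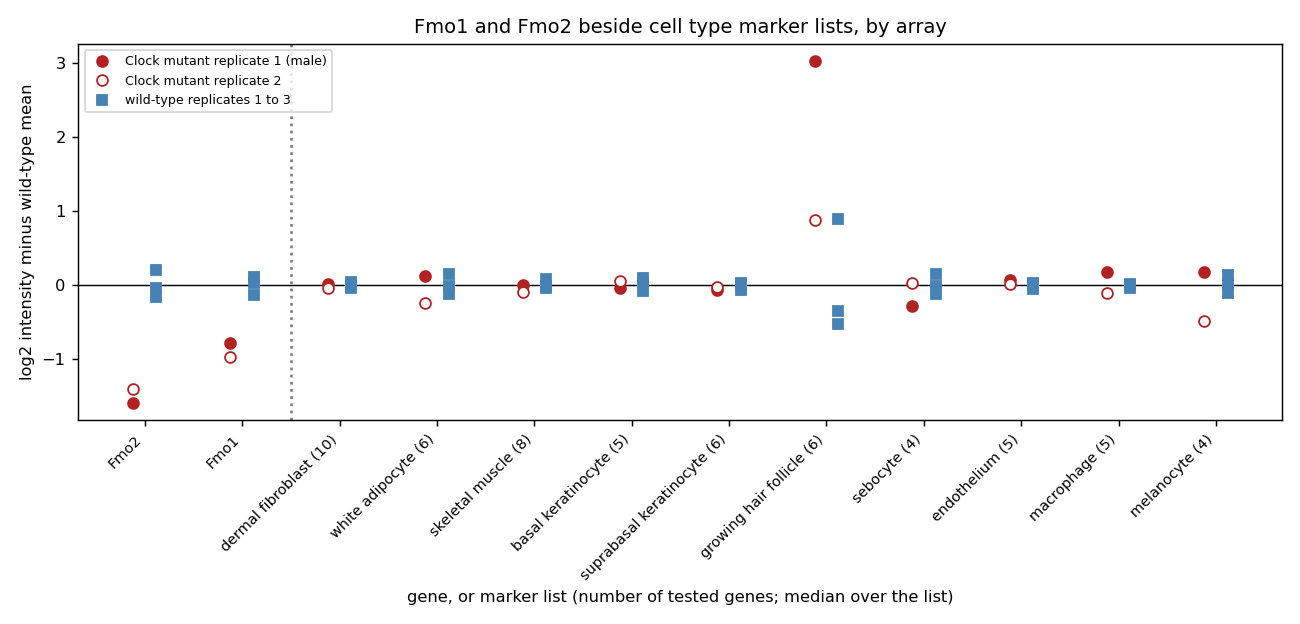
Log2 intensity minus the wild-type mean (vertical axis) of *Fmo2*, *Fmo1* and, as the median over the tested genes, of cell type marker lists (horizontal axis) on every array, with *Clock* mutant arrays as red circles (open for mutant 2) and wild-type arrays as blue squares. *Fmo2* lies at -1.59 and -1.41 and *Fmo1* at -0.79 and -0.97 in the mutants, while the list of the growing hair follicle is high in mutant 1, at 3.02.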

How the data were processed

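Total RNA of dorsal skin was hybridised to 1 Affymetrix array per mouse. The values are signal intensities that the authors deposited, made with MAS5 per the labels on a linear scale with a 2% trimmed mean of 500 on each array. Array medians were 106 to 118.1, and detection calls were not used here. MAS5 values of dim probe sets are noisy. Probe sets were named from the platform annotation, of which 34945 have 1 symbol.

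Intensities under 1 were set to 1 and log2 was taken. Controls (64) and probe sets under the 40th percentile of the mean log2 intensity (56.7) were left out, and 27022 were tested. The 2 *Clock* mutant and 3 wild-type arrays entered a two-sided limma fit (version 3.58.1, R 4.3.3; eBayes with an intensity trend; p adjusted by Benjamini-Hochberg over the 27022). A probe set under the filter takes its SE from a fit without it. A gene stands for its brightest tested probe set, and *Fmo4* for its only one. Mice are biological replicates per the labels, and their number limits the precision. The study's methods name Cyber-T for other arrays of theirs, so a Cyber-T style test (window 101, prior weight 10) was an alternative beside other scalings, filters, priors, a replicate block and leaving out each array. Members and lists were chosen with earlier results of these data known. The named genes are every member probe set, the smallest p of each pathway list, neighbours within 2 genes of a member, the 3 profiles nearest to *Fmo1* and to *Fmo2*, and *Per3*, *Dbp* and *Clock*. *Cdo1*, *Csad*, *Tiparp*, *Ahr*, *Cyp1a1*, *Krt14*, *Krt10*, *Col1a1*, *Col1a2*, *Dcn*, *Fabp4*, *Alas2* and the markers called by the Cyber-T style test were added after their values were seen. Promoter windows are from RefSeq (GRCm38.p6), whose table was used for names and gene order. Other genes of the family are not reported here.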

Additional observations from a re-analysis of the deposited data

How the results depend on the processing

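*Fmo1* and *Fmo2* were lower in the mutants under every alternative. With 1 array left out *Fmo1* ran from -0.97 to -0.79, *Fmo2* from -1.59 to -1.40, *Fmo4* from -1.05 to -0.43 and *Fmo5* from -0.11 to 0.00. The mean of all its probe sets, the dim one included, put *Fmo2* at -1.32, and *Fmo5* was at 0.04 after median centring. Of 27022 probe sets 24 passed the adjusted threshold. The count was 10 without a filter, 0 with eBayes without a trend (2631 at an unadjusted p under 0.05), 337 by the Cyber-T style test, and 0 to 201 with 1 array left out: 13 and 201 without mutants 1 and 2, 20 without WT 1, and 0 without WT 2 (1581 unadjusted) or WT 3 (2194 unadjusted); the cause was not tested. With the replicate number as a block it was 106. Deviations of same-numbered mutant and wild-type arrays from their group means correlated at 0.0078 and 0.0986, and those of mutant 1 and WT 3 at 0.0796. With 2 mutants the mutant deviations mirror each other, so these values cannot show whether the numbers pair the mice. The numbers were not taken to pair them. With that block *Fmo1* was at -0.86 and *Fmo2* at -1.40. The 49 tested pathway and neighbour genes gave 0 calls, 1 by the Cyber-T style test (*Arnt*) and 0 to 1 with 1 array left out (*Pgd*, 0.74 without mutant 2). The suprabasal keratinocyte median of -0.04 was 0.05 after median centring and -0.08 to 0.00 with 1 array left out. The 2 mutant mice and, for *Fmo4*, low signal limit what can be resolved.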
